A study of Mus musculus with 6 samples.

Results

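The mRNAs of mitochondrial ribosomal proteins are described here in left ventricles from 3 mice of the wild type (WT) and 3 Glut1-TG mice, with 1 Affymetrix array per heart. Glut1-TG mice carry a human Glut1 transgene, driven by the alpha-myosin heavy chain promoter and thus expressed in cardiomyocytes, and Glut1 is a glucose transporter that does not need insulin. All 6 mice were FVB males, 11 to 12 weeks old, on standard chow, and the series has no treatment. Whether the WT mice were littermates of the transgenic mice is not stated in the sources used here. The arrays served to ask which cardiac genes change when glucose uptake is raised in unstressed hearts.

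The members are all genes whose symbol starts with Mrpl or Mrps followed by a digit, measured by a probe set with 1 gene symbol. The array held 76 such genes among 18193 genes with a single-symbol probe set. A total of 156 probe sets measured them, 1 for each of 34 genes and several for each of 42, and the probe set of highest mean log2 signal stood for each gene. All 76 members passed the filter on low signal, which left 13178 genes in the test. Signal is the linear array intensity as the authors scaled it, with a trimmed mean of 500 in each array. It has no absolute unit, and signals were compared only within a probe set.

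Mitochondria have ribosomes of their own, which translate the few proteins encoded in mitochondrial DNA, nearly all of them core subunits of the respiratory chain and of ATP synthase. Their proteins are encoded in the nucleus, made in the cytosol and imported, whereas their rRNA comes from the mitochondrial genome. Some of the proteins descend from those of bacterial ribosomes, and others were added in the line of mitochondria. Heart muscle, which depends on oxidative phosphorylation, is rich in mitochondria.

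Of the members, 49 belong to the large subunit, where peptide bonds are formed, and 26 to the small subunit, where the mRNA is read. Mrps18a and Mrps30 were counted with the large subunit, in which they lie despite their names. The remaining gene, Mrps36, is named like a ribosomal protein but is a subunit of the 2-oxoglutarate dehydrogenase complex. Of the ribosomal members, 44 are named after a bacterial counterpart in the common nomenclature of ribosomal proteins and 31 are not.

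The transgene was looked at through Slc2a1, the mouse gene of Glut1. The probe set of highest signal read 527, 409 and 533 in WT 1, 2 and 3 and 851, 753 and 757 in Glut1-TG 1, 2 and 3, a log2 fold change of 0.69 (SE 0.16, limma adjusted p = 0.11), and all Glut1-TG arrays lay above all WT arrays. The other 2 probe sets of Slc2a1 went the opposite way without overlap, from 265 to 411 in WT and 125 to 174 in Glut1-TG arrays (-1.19) and from 401 to 430 in WT and 55.9 to 123 in Glut1-TG arrays (-2.30). With p adjusted over all probe sets, only the last of the 3 passed limma (adjusted p = 0.20 for the rising one, 0.27 and 0.033), and the mean over the probe sets gave -0.93. The transgene is human and the probes were designed on mouse sequence, and whether they read the transgene was not tested. Over all genes limma called 79 lower (0.599% of the genes tested) and 34 higher (0.258%) in Glut1-TG at an adjusted p under 0.05. This split moved with scaling, to 66 lower and 48 higher after quantile normalization, to 30 and 67 with arrays centred on cardiomyocyte markers, and to 30 and 43 with arrays centred on oxidative phosphorylation genes. Glut1-TG 1 stood apart from the rest, with correlations of log2 signal of 0.927 to 0.936 with the other arrays, while all other pairs of arrays had 0.952 to 0.966. The labels do not give a batch or a scan date.

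No member passed limma with Benjamini-Hochberg adjustment over all genes, with 0 lower and 0 higher, and the smallest adjusted p was 0.13, for Mrpl28. At an unadjusted limma p under 0.05, 18 members were lower in Glut1-TG hearts and 1 was higher, where 5.81% and 5.47% of all genes tested were lower and higher. The transgenic arrays were all below the WT arrays in 25 members, and all above them in 1 member, Mrpl50. Over all genes tested, 8.77% were separate below in this way and 8.67% above. The study's thresholds, which join an unadjusted p under 0.05 to a minimum difference (0.32 on the log2 scale), took 2 members as lower, Mrpl28 and Mrpl55, and 0 as higher, beside 2.65% and 3.21% of all genes. The unadjusted count of 18 fell to 9 without WT 1, to 8 without WT 3 and to 11 without Glut1-TG 3, and it was 7 when the probe sets of a gene were averaged and 8 without the intensity trend. It was 0 with arrays centred on cardiomyocyte markers and 1 with arrays centred on oxidative phosphorylation genes, and the 25 members with separate groups below became 1 and 5 under these centrings and 11 with averaged probe sets. Averages over only those probe sets that passed the filter on low signal, an alternative chosen after the data were seen, gave 10 members lower at an unadjusted p under 0.05 and 15 separate below. Leaving out Glut1-TG 1, the array that stood apart, gave unadjusted and separate counts of 15 and 31 members below WT, beside 5.21% and 13.1% of all genes. The shares of all genes thus moved with the setting too, and for the other alternatives they are not set beside the counts. A change particular to the members cannot be read from those counts.

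The differences were small. The median log2 fold change of the 76 members was -0.14 (quartiles -0.21 and -0.01) and 58 were negative as scaled by the authors, whereas with arrays centred on cardiomyocyte markers the median was 0.05 with 20 negative, and with arrays centred on oxidative phosphorylation genes it was 0.01 with 34 negative. The median over all genes tested was 0.02, with 47.0% negative, and it moved to 0.20 and 0.16 under those centrings. Relative to all genes the members' median was -0.15 as scaled by the authors. Centring moves all genes of an array by the same amount, so it cannot change this value. The relative median was -0.10 after quantile normalization and -0.10 with averaged probe sets. It was -0.18 with no filter and -0.17 to -0.12 with 1 array left out. Without Glut1-TG 1 the members' median was -0.11, with 61 negative. A total of 73 members differed by less than the study's minimum of 0.32 in log2, 3 lay beyond it on the lower side and 0 on the higher side. The 95% intervals of 68 members lay inside a 1.5-fold change either way, and those of 25 members inside the study's minimum either way.

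**Figure D1:**
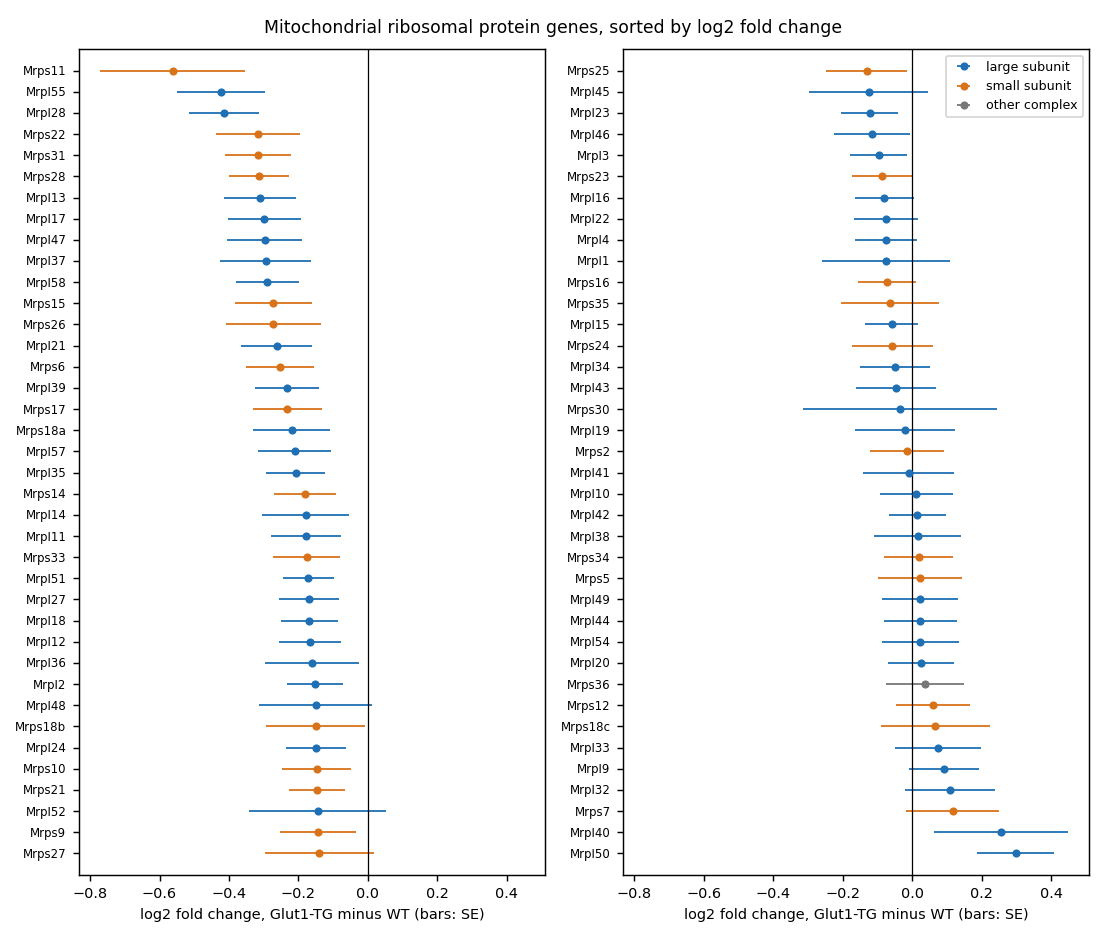
The log2 fold change of each of the 76 members, Glut1-TG minus WT, is plotted with its limma standard error and sorted from the lowest (upper left) to the highest (lower right), with colours for the subunits. As scaled by the authors 58 members lie left of 0, against 20 with arrays centred on cardiomyocyte markers and 34 with arrays centred on oxidative phosphorylation genes, and only Mrps11, Mrpl55 and Mrpl28 lie beyond 0.32, the study's minimum, on the lower side.

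Each array can also be read by itself. The members' median deviation from their own WT means was 0.02, -0.04 and 0.02 on the log2 scale in WT 1, WT 2 and WT 3, and -0.16, -0.09 and -0.14 in Glut1-TG 1, 2 and 3. The groups did not overlap, and the spread between arrays of a group was 0.03 (pooled SD). Glut1-TG 1 held the lowest signal of the 6 arrays for 29 members, Glut1-TG 3 for 24 and Glut1-TG 2 for 7, whereas the WT arrays held it for 3, 8 and 5. Among the WT arrays the highest signal fell in WT 1 for 20 members, in WT 2 for 12 and in WT 3 for 21. The summed signal of the members was 208854 to 220309 in WT and 195149 to 203665 in Glut1-TG.

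The promoters of the members were read as 300 bases around each gene's start, 250 before and 50 after, from RefSeq on mouse assembly GRCm38.p6, where 67 of the 76 members had an entry. The motif CCGGAAG, the core bound by ETS factors such as the alpha subunit of nuclear respiratory factor GABP, was searched first. It stood in the windows of 25 of 67 members (37.3%), of 17.8% of the 10582 tested genes with a window and of 8.9% of all 32851 windows. The motif AAGATGG, named for YY1, stood in 13 members (19.4%) and in 8.0% of tested genes, and GCATGCG, named for NRF1, in 8 members (11.9%) and 6.7%. The motif GGGCGG of SP1 was found in 50.7% of members and 64.3% of tested genes, TGACGTCA of CREB in 3.0% and 3.2%, and AAGGTCA of the estrogen-related receptors in 6.0% and 4.2%. The E-box CACGTG stood in 7.5% and 11.2% and the TATA box, searched as TATAAA, in 7.5% and 10.1%. All motifs were searched on both strands, and matches of 2 motifs could overlap. These are matches of letters and not sites of binding. The members with CCGGAAG had a median log2 fold change of -0.15 and those without it -0.13, whereas the 8 with GCATGCG had -0.03 and those without it -0.15, and the 2 with TGACGTCA -0.03 and those without it -0.15. For the other 5 motifs the medians lay between -0.16 and -0.11 with the motif and between -0.15 and -0.14 without it, and none of these differences was tested.

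Many members start back to back with another gene. A tested gene on the other strand began within 1000 bases of 20 of the 67 members (29.9%), whereas 10.6% of all tested genes with a window had such a neighbour. Windows of 3 of these pairs are printed because 2 genes of mitochondrial gene expression start within each of them, and they hold 0, 1 and 2 matches of CCGGAAG. The pairs were chosen after their values were seen. The windows run 5′ to 3′ on the strand of the member, whose start is base 251 counted from 1 at the 5′ end, and capitals mark CCGGAAG. The Mrps11 window is chr7:78782881-78783180 on the plus strand and holds the start of Mrpl46, a large-subunit member, at base 209. The Mrps12 window is chr7:28741772-28742071 on the minus strand, with a match at base 252 and the start of Sars2, the mitochondrial seryl-tRNA synthetase, at base 104. The Mrpl43 window is chr19:45006393-45006692 on the minus strand, with matches at bases 195 and 239 and the start of Twnk, the helicase of mitochondrial DNA, at base 135.
Mrps11: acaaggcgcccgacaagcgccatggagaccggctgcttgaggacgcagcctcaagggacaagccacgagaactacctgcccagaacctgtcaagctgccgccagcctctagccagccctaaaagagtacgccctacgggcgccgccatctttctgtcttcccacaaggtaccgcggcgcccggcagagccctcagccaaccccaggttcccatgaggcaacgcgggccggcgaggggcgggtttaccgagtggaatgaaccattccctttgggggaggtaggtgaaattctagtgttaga
Mrps12: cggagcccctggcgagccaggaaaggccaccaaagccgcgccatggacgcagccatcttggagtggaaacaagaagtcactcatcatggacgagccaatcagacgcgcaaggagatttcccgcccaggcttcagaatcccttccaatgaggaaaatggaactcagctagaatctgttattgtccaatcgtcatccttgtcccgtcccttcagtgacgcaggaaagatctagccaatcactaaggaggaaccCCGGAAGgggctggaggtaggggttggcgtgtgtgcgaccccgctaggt
Mrpl43: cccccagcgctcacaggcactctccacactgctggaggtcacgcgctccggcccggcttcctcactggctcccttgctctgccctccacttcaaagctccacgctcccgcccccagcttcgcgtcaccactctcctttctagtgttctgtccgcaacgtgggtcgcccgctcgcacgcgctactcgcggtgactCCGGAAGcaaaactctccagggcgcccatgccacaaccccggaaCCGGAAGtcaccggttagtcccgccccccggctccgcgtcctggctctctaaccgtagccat

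For these pairs the differences stand side by side, without a test between the genes of a pair. Mrps11 had a log2 fold change of -0.56, while Mrpl46, whose start lies 42 bases away, had -0.11 (SE 0.11). Mrps12 had 0.06 (SE 0.11) and its neighbour Sars2 0.54 (SE 0.20, limma adjusted p = 0.35). Both genes of the pair Mrpl43 and Twnk were close to 0, at -0.05 (SE 0.12) and -0.09 (SE 0.11). None of the 20 neighbours passed limma, their median log2 fold change was -0.01 and 11 of the 20 were negative. Mrpl46 and Mrps11 are neighbours of each other and count once each among them.

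**Figure D2:**
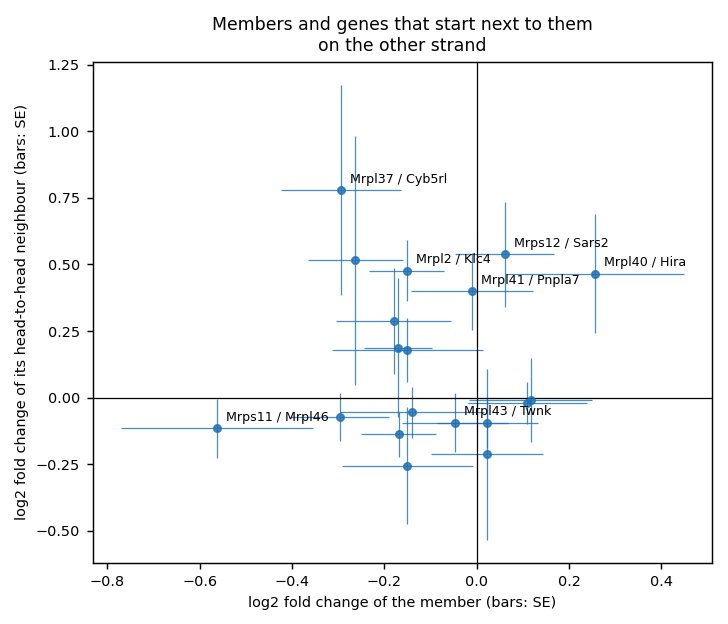
Each point is a member and the tested gene that starts within 1000 bases of it on the other strand, with log2 fold changes (Glut1-TG minus WT) on both axes and limma standard errors as bars. The pair Mrps11 and Mrpl46 is drawn once, and Sars2 lies at 0.54 above Mrps12 at 0.06.

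Among the small-subunit members, 7 of 26 were lower and 0 higher at an unadjusted p under 0.05, and 9 lay with all Glut1-TG arrays below all WT arrays. The shares over all genes tested were 5.81% lower, 5.47% higher and 8.77% separate below. Mrps11, a protein of the platform where the mRNA leaves the decoding site, read 1057, 784 and 654 in WT 1, 2 and 3 and 442.5, 611 and 623 in Glut1-TG 1, 2 and 3. WT 1 was far above the other WT arrays and Glut1-TG 1 far below the other transgenic ones, so that the groups came close to each other without overlapping. Its log2 fold change was -0.56 (SE 0.21, limma adjusted p = 0.36), and -0.11 averaged with its other probe set, which did not pass the filter on low signal. Mrps31 read 1961, 1756 and 1817 in WT 1, 2 and 3 and 1482, 1495 and 1461 in Glut1-TG 1, 2 and 3, with transgenic arrays almost level and all of them below WT (-0.32, SE 0.09, adjusted p = 0.24, and -0.16 with averaged probe sets). The groups did not overlap either for Mrps28, at 3252, 3405 and 3520.1 in WT 1, 2 and 3 and 2811, 2835.5 and 2551 in Glut1-TG 1, 2 and 3 (-0.31, SE 0.09, adjusted p = 0.19).

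Mrps22, a protein found in mitochondrial ribosomes and not in bacterial ones, read 1382, 1172 and 1517 in WT 1, 2 and 3 and 1066, 1092.5 and 1089.8 in Glut1-TG 1, 2 and 3. Its transgenic arrays were nearly equal and the WT arrays spread widely above them, with WT 2 the closest (-0.32, SE 0.12, adjusted p = 0.37). Mrps15 and Mrps6, both with bacterial counterparts, also had all transgenic arrays below WT, with log2 fold changes of -0.27 (SE 0.11) and -0.25 (SE 0.10), and were picked out after their values were seen. Further probe sets of Mrps15 gave -0.29 without overlap and -0.38 with overlap, and that of Mrps6 gave 0.04 with overlap. Mrps7, which binds the rRNA of the small-subunit head, and Mrps12, a protein of the decoding centre, were positive, at 0.12 (SE 0.13) and 0.06 (SE 0.11). Both overlapped between groups.

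The 3 genes of the Mrps18 group descend from 1 bacterial protein, and in the ribosome Mrps18b and Mrps18c lie in the small subunit and Mrps18a in the large. Mrps18a read 3714.5, 3766 and 4289 in WT 1, 2 and 3 and 3874, 2989 and 3281 in Glut1-TG 1, 2 and 3, with Glut1-TG 1 inside the WT range and the other transgenic arrays below it (-0.22, SE 0.11). Mrps18b read 1078, 1099 and 1364 in WT 1, 2 and 3 and 1172, 912 and 1106 in Glut1-TG 1, 2 and 3 (-0.15, SE 0.14), and the difference was 0.03 with arrays centred on cardiomyocyte markers. Mrps18c read 1522, 1540.1 and 1486 in WT 1, 2 and 3 and 2092, 1419.7 and 1348 in Glut1-TG 1, 2 and 3, and only Glut1-TG 1 stood high (0.07, SE 0.16, and -0.13 without that array). None of the 3 separated the groups.

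Of the 49 large-subunit members, 11 were lower and 1 was higher at an unadjusted p under 0.05, and all transgenic arrays lay below WT in 16 and above in 1. The shares over all genes tested were 5.81% lower and 5.47% higher, and 8.77% separate below and 8.67% above. Mrpl28, a protein with a bacterial counterpart, read 4526, 4272 and 5188 in WT 1, 2 and 3 and 3189.9, 3737 and 3549.5 in Glut1-TG 1, 2 and 3. Each transgenic array lay below each WT array, with Glut1-TG 1 the lowest and WT 3 the highest. Its log2 fold change was -0.42 (SE 0.10, limma adjusted p = 0.13), a fold of 0.75. The other probe sets of Mrpl28 gave -0.21, also without overlap, and -0.12 with overlap. The average over all 3 probe sets, with the one used, was -0.25.

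Mrpl55, which has no bacterial counterpart, read 2509, 2368 and 2488.5 in WT 1, 2 and 3 and 1500.1, 2065 and 1979 in Glut1-TG 1, 2 and 3. WT arrays were within a narrow range, and Glut1-TG 1 lay far below the other transgenic arrays (-0.42, SE 0.13, adjusted p = 0.24). Mrpl58, a peptidyl-tRNA hydrolase built into the large subunit that frees stalled chains, read 2153, 2152 and 2166.5 in WT 1, 2 and 3 and 1855, 1791 and 1656 in Glut1-TG 1, 2 and 3. The WT arrays were nearly identical and the transgenic arrays all lower (-0.29, SE 0.09, adjusted p = 0.27), and this gene is named beyond the rule for named genes, for its low unadjusted p. The other probe set of Mrpl58, with means of 232 in WT and 254.5 in Glut1-TG, gave 0.16 with overlapping groups.

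Mrpl13, a protein with a bacterial counterpart, read 4873, 4401 and 5112 in WT 1, 2 and 3 and 3431, 3881 and 4318.5 in Glut1-TG 1, 2 and 3, with Glut1-TG 3 close under the lowest WT array (-0.31, SE 0.10). Mrpl17, next to the exit of the peptide tunnel, read 2077, 2441 and 2097 in WT 1, 2 and 3 and 1741, 1949 and 1685 in Glut1-TG 1, 2 and 3 (-0.30, SE 0.11), and Mrpl47 read 1537.5, 1473 and 1358 in WT 1, 2 and 3 and 1115, 1176 and 1266 in Glut1-TG 1, 2 and 3 (-0.30, SE 0.11). The groups did not overlap in these 3, but the average over all probe sets of the gene was -0.01 for Mrpl13, 0.12 for Mrpl17 and 0.14 for Mrpl47. Over only the probe sets that passed the filter it was -0.16, 0.12 and -0.30, since the others of Mrpl47 and 1 of Mrpl13 did not pass it. Mrpl37, without a bacterial counterpart, read 1115, 947 and 1000.1 in WT 1, 2 and 3 and 741, 905 and 855 in Glut1-TG 1, 2 and 3 and had WT 2 just above the highest transgenic array (-0.29, SE 0.13).

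Mrpl10 and Mrpl12 form the stalk that recruits translation factors, and in human cells Mrpl12 also binds the mitochondrial RNA polymerase. Mrpl12 read 4338, 3921 and 4569 in WT 1, 2 and 3 and 3631, 3980.4 and 3797 in Glut1-TG 1, 2 and 3, and Glut1-TG 2 lay inside the WT range (-0.17, SE 0.09, adjusted p = 0.52, and 0.01 with arrays centred on cardiomyocyte markers). Mrpl10 read 2516, 2217 and 2398 in WT 1, 2 and 3 and 2636, 2432 and 2142 in Glut1-TG 1, 2 and 3, with Glut1-TG 1 the highest and Glut1-TG 3 the lowest of all arrays (0.01, SE 0.10). The stalk proteins thus did not separate the groups.

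Mrpl50, without a bacterial counterpart, was the only member whose transgenic arrays all lay above WT. It read 1703, 1836 and 1636 in WT 1, 2 and 3 and 1854, 2321 and 2210.2 in Glut1-TG 1, 2 and 3, and Glut1-TG 1 lay just above WT 2. The log2 fold change was 0.30 (SE 0.11, limma adjusted p = 0.36), and its other probe set gave 0.14 with overlapping groups. Without WT 1, WT 3, Glut1-TG 2 or Glut1-TG 3 the count of members higher at an unadjusted p under 0.05 was 0, and without WT 2 it was 2. Mrpl40 came next with 0.26 (SE 0.19), from 758, 1194 and 1228.5 in WT 1, 2 and 3 and 1415, 1059 and 1265 in Glut1-TG 1, 2 and 3, where WT 1 stood apart at the low end and the groups overlapped. Mrpl32, Mrpl9, Mrpl33 and Mrpl20, all with bacterial counterparts, had values from 0.03 to 0.11 and overlapped between groups, and averaging the probe sets gave -0.06 for Mrpl9 and -0.09 for Mrpl33. Mrps36, the subunit of another complex, had 0.04 (SE 0.11).

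**Figure D3:**
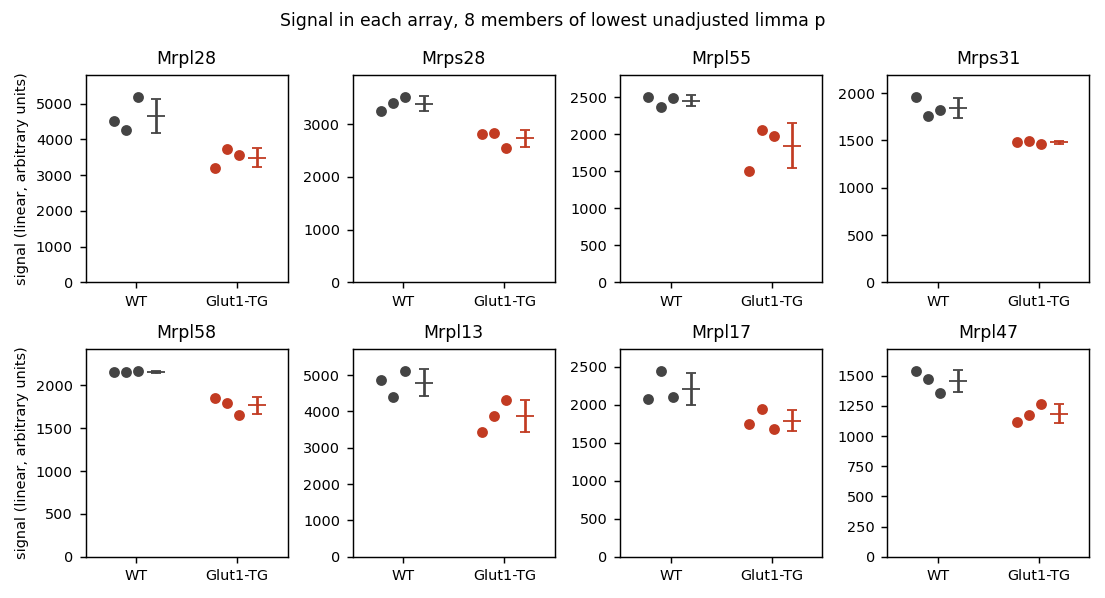
Linear signal is plotted for each array for the 8 members of lowest unadjusted limma p, with 3 WT arrays in grey, 3 Glut1-TG arrays in red and, to the right of each group, its mean and SD (n = 3). In all 8 panels the transgenic points lie below the WT points, and none of the 8 passed the adjustment over all genes.

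By origin, the counts were as follows. Among the 44 members named after a bacterial counterpart, 11 were lower and 0 higher at an unadjusted p under 0.05 and the median log2 fold change was -0.15. For the 31 other ribosomal members the counts were 7 and 1, with a median of -0.13. Over all genes tested 5.81% were lower and 5.47% higher in this way. Large-subunit and small-subunit members had medians of -0.12 and -0.15. These differences between classes were not tested.

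Further probe sets of the same genes gave a less uniform picture. Above the filter, 64 further probe sets measured 38 of the members, and 33 had the sign of the probe set used and 31 the other sign. Their median log2 fold change was -0.04, 11 had all transgenic arrays below WT and 3 had all above, beside 8.77% and 8.67% of all genes tested. For the 25 members with separate groups below, 23 further probe sets measured 16 genes, of which 14 probe sets were negative and 3 separated the groups. The widest gap upward was that of Mrps10, with -0.15 for the probe set used and 1.29 (SE 0.68, with overlapping groups) for a dim one, and Mrpl48 followed, with -0.15 against 0.42 and 0.84, both without overlap. The widest gap downward was that of Mrps5, with 0.02 against -1.19 for 1 of its 4 others. No probe set of a member passed adjustment over all probe sets. Mrps10, Mrpl48 and Mrps5 were picked out after their values were seen.

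Signal strength moved with the sign of the difference over the whole array. In 5 equal bins of tested genes, from dim to bright, the median log2 fold change was 0.14, 0.09, 0.04, -0.00048 and -0.06, and the share of genes with all transgenic arrays below WT was 3.83%, 4.14%, 6.68%, 9.60% and 19.6%. In the brightest bin 14.9% of the genes were lower at an unadjusted p under 0.05. This bin held 53 of the 76 members, the next 20 and the middle one 3. Members in these bins had medians of -0.14, -0.08 and -0.14, beside -0.06, -0.00020 and 0.04 for the other genes of the bins, and 19, 5 and 1 of them had all transgenic arrays below WT. The part of signal strength in the members' difference was not tested.

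**Figure D4:**
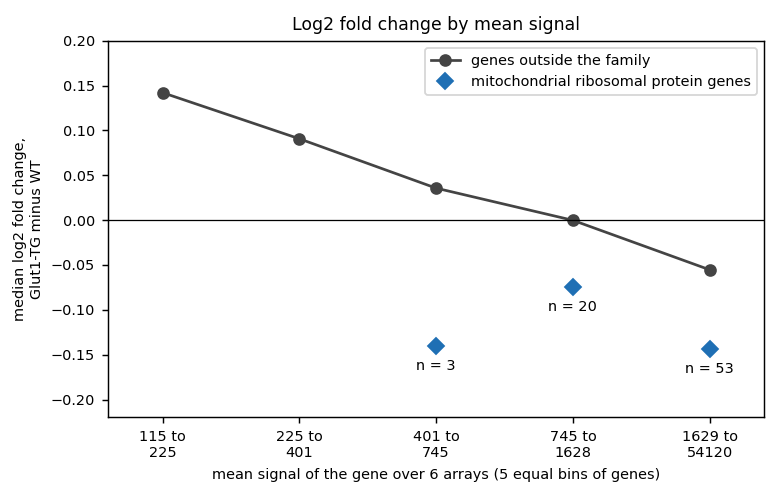
The median log2 fold change (Glut1-TG minus WT) is plotted against the mean signal of the gene, in 5 equal bins, for genes outside the family (grey line) and for the members (blue, with their number). The grey line runs from 0.14 in the dimmest bin to -0.06 in the brightest, and the members lie below it in each bin that holds any as scaled by the authors; centring moves both by the same amount, to members' medians above 0 over the family.

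The RNA of the groups also differed in a control of its integrity. The ratio of the 3′ to the 5′ control probe set of actin was 1.31 to 1.40 in WT and 0.995 to 1.06 in Glut1-TG arrays, while that of Gapdh overlapped between groups, at 0.817 to 0.827 and 0.789 to 0.830. The median signal of all probe sets was 213 in Glut1-TG 1 and 171 to 187 in the other arrays. The part of these in the result was not tested.

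Markers of cardiomyocytes had the same sign as most members. All 14 were negative as scaled by the authors, with a median of -0.19, 0 passed limma, 4 were lower at an unadjusted p under 0.05 (Mybpc3, Ryr2, Tnnt2 and Tnnc1) and 4 had all transgenic arrays below WT. Over all genes tested 5.81% were lower and 8.77% separate below in this way. In the brightest bin, which holds all 14 markers, the shares were 14.9% and 19.6%. Their summed signal was 529803 to 644029 in WT and 495373 to 526613 in Glut1-TG, with the lowest WT array close to the highest transgenic one. The markers' median deviation from their WT means overlapped between groups, with WT 2 at -0.1461 and Glut1-TG 2 at -0.1460. The WT arrays ranged up to 0.126, and the lowest transgenic array, Glut1-TG 3, lay at -0.249. Endothelial, fibroblast and macrophage markers, 8 of each, had medians of 0.03, 0.09 and 0.06, with summed signals of 13006 to 15305, 28050 to 31011 and 15264 to 17525 in WT, and 12993 to 13933, 25758 to 35319 and 14390 to 18860 in Glut1-TG. Smooth muscle and pericyte markers, of which 5 of 6 were tested, had a median of -0.11, with 3 negative and 1 (Pdgfrb, -0.28) lower at an unadjusted p under 0.05, and summed signals of 22629 to 29164 in WT and 26053 to 26909 in Glut1-TG. Of them 1 was separate below. Among endothelial markers 1 was lower unadjusted, 2 were separate below and 1 above. Further, 1 fibroblast marker was higher unadjusted and 1 macrophage marker was separate above. Over all genes tested 5.47% were higher unadjusted and 8.67% separate above. In bulk tissue fewer cells of a type and less RNA per cell cannot be told apart, and the part of cell composition in the members' values was not tested. All 14 cardiomyocyte markers were measured in this heart tissue, and of the hepatocyte markers only Alb passed the filter, at 128 to 249. A single marker passed it for adipocytes, erythroid cells and lymphocytes, with log2 fold changes of 0.05 for Fabp4, 0.16 for Alas2 and 0.27 for Cd79a and overlapping groups. Of the 6 atrial markers Sln and Gja5 did not pass the filter, and 2 of the 4 tested passed limma as higher in the transgenic ventricles. These were Myl4 at 1.75 (adjusted p = 0.0085) and Myl7 at 3.76 (adjusted p = 0.041). Myl7 read 26.5, 90.5 and 14.2 in WT 1, 2 and 3 and 377.7, 712.8 and 314.9 in Glut1-TG 1, 2 and 3. All its WT values lay under the filter signal of 115, and it passed the filter only through the transgenic arrays. The size of its difference therefore rests on dim WT values. Myl7 no longer passed limma without WT 1, WT 3, Glut1-TG 1, Glut1-TG 2 or Glut1-TG 3 (adjusted p = 0.14, 0.094, 0.096, 0.20 and 0.11). The other 2 were negative and overlapped between groups, Bmp10 at -0.61 (SE 0.48) and Nppa at -0.07 (SE 0.20), and the summed signals of the 4 overlapped, at 5339.9 to 6154 in WT and 5267 to 8760.0 in Glut1-TG.

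Subunits of the mitochondrial ribosome whose symbols fall outside the family's name were looked at next, together with the membrane insertase Oxa1l, and 5 of 7 listed genes were measured. Ptcd3, a small-subunit protein, read 2584, 2620.1 and 2724 in WT 1, 2 and 3 and 1974, 2171 and 2256.5 in Glut1-TG 1, 2 and 3, and Dap3, a small-subunit protein that binds GTP, read 3357, 3199.9 and 3359 in WT 1, 2 and 3 and 2699, 2861 and 2692 in Glut1-TG 1, 2 and 3. In both the groups were separate (-0.31, SE 0.09, and -0.27, SE 0.08, limma adjusted p = 0.23 and 0.25), although averaging the probe sets of Ptcd3 gave 0.64. Gadd45gip1, a large-subunit protein, had -0.25 (SE 0.20, and -0.12 averaged), and Chchd1, of the small subunit, had -0.08 (SE 0.09, and 0.10 and 0.07 under the centrings), both with overlap. The remaining tested gene was the 1 positive of the 5, at 0.22. None of the 5 passed limma, and 2 were lower and 0 higher at an unadjusted p under 0.05, beside 5.81% and 5.47% of all genes tested.

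Factors that build and run the ribosome showed few differences. Of 22 assembly factors, 0 passed limma and 2 were lower at an unadjusted p under 0.05, the rRNA methyltransferase Tfb1m (-0.52, SE 0.17) and the GTPase Mtg1 (-0.43, SE 0.16). Of 11 translation factors 0 passed, with Mtres1, which acts in rescue of stalled ribosomes, at -0.44 (SE 0.10, adjusted p = 0.099) and Mtfmt, which formylates the initiator tRNA, at 0.61 (SE 0.27, and 0.18 averaged over all its probe sets). Of 18 mitochondrial aminoacyl-tRNA synthetases 0 passed and 1, Sars2, was higher at an unadjusted p under 0.05, while Hars2 had 0.29 (SE 0.13, and 0.05 averaged over all its probe sets). The medians of these lists were -0.09, -0.09 and -0.06. Over all genes tested 5.81% were lower and 5.47% higher at an unadjusted p under 0.05.

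The list of genes for mitochondrial DNA and RNA held the only gene of these lists that passed. Hsd17b10, a dehydrogenase that is also a subunit of mitochondrial RNase P, read 7051, 6596 and 7285.5 in WT 1, 2 and 3 and 4599, 5429.7 and 4747 in Glut1-TG 1, 2 and 3, and it fell by 0.51 on the log2 scale (SE 0.09, limma adjusted p = 0.039). All transgenic arrays lay well below WT. Whether the fall bears on its part in RNase P or on its part as a dehydrogenase was not tested. The call did not hold without WT 1, WT 2, WT 3, Glut1-TG 1 or Glut1-TG 3 (adjusted p = 0.15, 0.092, 0.20, 0.083 and 0.13), nor with arrays centred on cardiomyocyte markers (0.18) or on oxidative phosphorylation genes (0.15). Tefm, the elongation factor of mitochondrial transcription, had -0.61 (SE 0.14, adjusted p = 0.11). At an unadjusted p under 0.05, 5 of the 20 genes of the list were lower and 0 higher, beside 5.81% and 5.47% of all genes tested. Of 12 regulators of mitochondrial biogenesis 0 passed and 1 was lower unadjusted, the muscle regulator Perm1 (-0.59, SE 0.12, adjusted p = 0.060, and 0.020 without Glut1-TG 1), with Pprc1 at -0.38 (SE 0.20). Perm1 averaged over its probe sets gave 0.08.

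The members were set beside larger lists. Of 71 oxidative phosphorylation genes 0 passed limma, 16 were lower and 0 higher at an unadjusted p under 0.05, 20 had all transgenic arrays below WT, and the median was -0.16, with Sdhd at -0.37 (SE 0.10, and -0.10 averaged) and Ndufv1 at -0.28 (SE 0.08). Of 50 genes whose symbols start like those of cytosolic ribosomal proteins, 0 passed, 9 were lower and 0 higher, and 12 had all transgenic arrays below WT. Their median was -0.12, with Rpl11 at -0.34 (SE 0.09) and Rpl8 at -0.27 (SE 0.07). These 50 include the kinase genes Rps6ka3, Rps6ka5, Rps6kb2 and Rps6kl1 and the binding protein Rps19bp1 (-1.08), which are not ribosomal proteins. Those non-ribosomal genes overlapped between groups, and none was lower at an unadjusted p under 0.05. Of 20 genes of mitochondrial protein import 0 passed, 7 were lower and 0 higher, and the median was -0.16, with Timm50 at -0.58 (SE 0.13, and -0.05 averaged over all its probe sets) and Grpel1 at -0.33 (SE 0.08). Over all genes tested 5.81% were lower and 5.47% higher at an unadjusted p under 0.05, and 8.77% had all transgenic arrays below WT. No difference between the members and these lists was tested. WT 2 differed among the lists, since its median deviation was -0.04 for the members, and -0.14 for oxidative phosphorylation genes, where the WT range of -0.14 to 0.12 overlapped the transgenic range of -0.23 to -0.09. The ranges overlapped for cytosolic ribosomal proteins too (-0.08 to 0.06 and -0.15 to -0.06). They were separate, like those of the members, for protein import (-0.04 to 0.02 in WT and -0.22 to -0.12 in Glut1-TG). The same held for mitochondrial DNA and RNA genes (-0.03 to 0.00086 and -0.19 to -0.11).

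**Figure D5:**
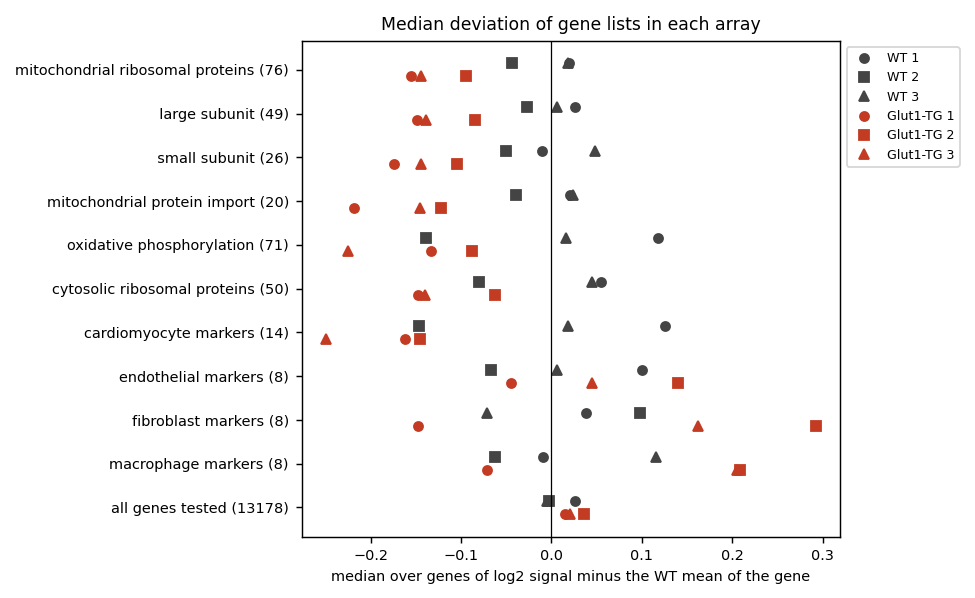
For each list (number of genes tested) the median deviation of its genes from their WT means on the log2 scale is plotted in each array, WT in grey and Glut1-TG in red, with a symbol for each replicate number. The list of cytosolic ribosomal proteins was taken by symbol and also holds Rps6ka3, Rps6ka5, Rps6kb2, Rps6kl1 and Rps19bp1. For the members the 3 transgenic arrays lie at -0.16, -0.09 and -0.14, left of the 3 WT arrays at 0.02, -0.04 and 0.02, as scaled by the authors, and centring on cardiomyocyte markers or on oxidative phosphorylation genes moves the members' median difference above 0.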

How the data were processed

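Biotin-labelled cRNA of 6 left ventricles (3 WT, 3 Glut1-TG) was hybridised, 1 array per heart. The authors processed the scans with GCOS (per the labels; version not given in the sources used here) and deposited a linear intensity per probe set without detection calls. With 2% trimmed from either tail, every array had a mean of 500, so the intensities were used as scaled. Signals under 1 (48 values) were set to 1 before log2. Of 45101 probe sets, 64 controls were left out, and 34945 of the rest had 1 gene symbol in the platform annotation, 932 several and 9160 none. The probe set of highest mean log2 signal stood for each of 18193 genes, and those outside the upper 60% (under a signal of 115) were left out.

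The comparison used limma 3.58.1 under R 4.3.3 (two-sided; lmFit, then eBayes with trend) and no covariates, with Benjamini-Hochberg adjustment over 13178 genes and a threshold of 0.05. The study's fold change of 1.25 and unadjusted p under 0.05 were applied with the methods' t-test on log2 signal. The number of arrays limits the precision, and p-values measure the spread between hearts. Alternatives changed the scaling (quantile normalization), the offset (50), the filter (none, or the upper 40%), the probe sets (their mean per gene, over all of them or, added after the data were seen, over those above the filter), the arrays (each left out), the model (a block for replicate number, no trend) and the centre of each array (cardiomyocyte markers or oxidative phosphorylation genes). Leave-outs and quantile normalization kept the probe sets of the main comparison. The script was tested on simulated data.

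The members and the gene lists were chosen with earlier results of these data known. The lists were written from general knowledge, with the cytosolic ribosomal proteins taken by the start of the symbol. Named were the 10 members of highest and the 10 of lowest log2 fold change, the Mrps18 group, the stalk proteins, Mrps36, the subunits outside the name rule, Slc2a1, and the 2 genes of smallest p in each other list; exceptions are marked, and single cell type markers named beside a count were picked after their values were seen. Promoter windows are RefSeq's on GRCm38.p6, matched by symbol.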

Additional observations from a re-analysis of the deposited data

How the results depend on the processing

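No member passed the adjusted limma threshold under any of the alternatives run, in either direction; only the study's thresholds took 2 as lower. Averaging probe sets gave 7 members lower and 2 higher at an unadjusted p under 0.05, 11 separate below and 3 above, a median of -0.075, and 37 genes lower and 9 higher overall. Averaging only probe sets above the filter, added after the data were seen, gave 10 members lower and 1 higher unadjusted, 15 below and 2 above, a median of -0.10, and 47 genes lower and 21 higher. Without the intensity trend there were 8 members lower and 0 higher, and 2 genes lower and 2 higher. Quantile normalization gave a median of -0.094 and 2 members above. Centring on cardiomyocyte markers gave 0 members lower and 2 higher, 1 below and 14 above, 20 negative, a median of 0.046, and 30 genes lower and 67 higher. Centring on oxidative phosphorylation gave 1 and 2, 5 and 9, 34 negative, a median of 0.011, and 30 genes lower and 43 higher. The methods' t-test gave 15 members lower and 0 higher unadjusted, and 0 genes lower and 1 higher after Benjamini-Hochberg. The study's thresholds gave 349 genes lower and 423 higher. They were applied here to 1 probe set per gene above the filter, with the t-test on log2 signal. These are not the paper's own counts, which are larger in both directions. A block by replicate number gave 13 members lower and 1 higher unadjusted, and 46 genes lower and 23 higher. Correlations of same-numbered arrays, as deviations from group means, were 0.08, -0.03 and 0.05, and those of differently numbered arrays were -0.11 to 0.06. The labels do not say whether the numbers pair the hearts, and these correlations cannot decide it. Leaving out 1 array gave 8 to 15 members lower and 0 to 2 higher unadjusted, 26 to 33 below and 2 to 3 above, 55 to 62 negative and medians of -0.15 to -0.11. Groups separate more easily with 1 array left out, for any gene, so these counts below and above are not comparable with those of all 6 arrays. Genes called lower numbered 33, 35 and 31 without WT 1, 2 and 3 and 55, 65 and 50 without Glut1-TG 1, 2 and 3, and genes called higher 13, 18 and 16, and 30, 15 and 17. The unadjusted and separate counts of members are given here without the shares of all genes, which also moved with the setting. A change particular to the members cannot be read from them.

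Signs of single genes turned with averaged probe sets for Mrpl17 (0.12), Mrpl47 (0.14), Mrpl33 (-0.092), Mrpl9 (-0.061), Slc2a1 (-0.93), Ptcd3 (0.64) and Perm1 (0.085), all but Mrpl47 at the same values with only probe sets above the filter, and with centring on cardiomyocyte markers for Mrps18b (0.031), Mrpl12 (0.014) and Chchd1 (0.10), the last also with oxidative phosphorylation (0.069). Leaving out 1 array gave ranges of -0.057 to 0.093 for Mrpl10, -0.019 to 0.11 for Mrps12, -0.012 to 0.13 for Mrpl33, -0.0046 to 0.26 for Mrpl32, -0.026 to 0.096 for Mrpl20, -0.066 to 0.16 for Mrps36 and -0.13 to 0.18 for Mrps18c. Hsd17b10 did not pass limma with the block (adjusted p = 0.10), without trend (0.31) or with averaged probe sets (0.084, and 0.076 above the filter), nor the methods' t-test (0.25), whereas Perm1 passed with the strict filter (0.048) and Slc2a1 with centring on cardiomyocyte markers (0.045). The block changed no other call of a named gene. The cause was not tested for any of these changes. The 95% intervals of single members reached 0.164 to 0.625 to either side in log2, which is the precision that 3 arrays a group gave.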

Other observations

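A total of 4 probe sets carried a symbol of the family together with another symbol and were not counted as members. A probe set shared by Gm6238 and Mrpl30 read 9055 ± 367 in WT and 8479 ± 357 in Glut1-TG (SD, n = 3), a log2 fold change of -0.09 (SE 0.08), and a second one of the same pair read 21.5 ± 15.1 and 24.0 ± 12.9. The probe set of Ccdc142 and Mrpl53 read 3833 ± 342 and 3856 ± 272, a log2 fold change of 0.01 (SE 0.10). The probe set of Nme3 and Mrps34 read 296, 245 and 430 in WT 1, 2 and 3 and 684, 398 and 366 in Glut1-TG 1, 2 and 3, a log2 fold change of 0.56 (SE 0.29), with Glut1-TG 1 far above the rest and the groups overlapping. The single-symbol probe set of Mrps34 gave 0.02 (SE 0.10). None of the 4 passed adjustment over all probe sets, and the lowest adjusted p was 0.67.

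Mrps30, a large-subunit protein despite its name, read 1068, 972 and 2176 in WT 1, 2 and 3 and 1168, 1094 and 1642 in Glut1-TG 1, 2 and 3. WT 3 and Glut1-TG 3 stood high together, and the standard error of its log2 fold change, 0.28, was the widest of the members. It was chosen after its values were seen.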
